A study of Homo sapiens with 12 samples.

Results

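The BCL2 family of apoptosis regulators was followed through 10 genes, BCL2, BCL2L1, MCL1, BAX, BAK1, BBC3, BCL2L11, PMAIP1, BID and BMF, in KYSE70 cells, a line from a human esophageal squamous cell carcinoma. The members were the rows of the deposited gene table that carry these symbols, 10 of 58884 genes. RNA was sequenced from 4 libraries of cells given 20 nM mitoxantrone, 4 of cells given 10 µM pyrimethamine and 4 of control cells without treatment, and each drug was given for 72 h. The study's title presents both drugs as inhibitors of NRF2, a transcription factor of the oxidative stress response. Mitoxantrone is an anticancer drug that poisons topoisomerase II, and pyrimethamine is an antifolate used against malaria and toxoplasmosis. All groups are the same cancer line, and the labels name no genetic change, and say neither whether control cells received a vehicle nor whether the 4 libraries of a group are separate cultures. The p-values therefore measure only the spread between these libraries, which may be technical.

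BCL2 family proteins decide at the outer mitochondrial membrane whether a cell starts apoptosis. Survival proteins of the family (BCL2, BCL-XL from BCL2L1, and MCL1) hold back the pore-forming proteins BAX and BAK, and BH3-only proteins (PUMA from BBC3, BIM from BCL2L11, NOXA from PMAIP1, BID and BMF) bind the survival proteins or act on BAX and BAK directly. An open pore releases cytochrome c, which drives the assembly of the apoptosome and the activation of caspases. The family is also controlled by splicing, protein modification and protein turnover, which gene-level RNA counts do not measure.

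Mitoxantrone libraries differed from control libraries in 9 of the 10 genes: 6 were higher (BCL2, BCL2L1, MCL1, BBC3, BCL2L11 and BMF) and 3 were lower (BAX, BAK1 and BID). Over all 16950 genes tested, 69.3% were called in that comparison, 33.5% higher and 35.8% lower. Pyrimethamine libraries differed from control libraries in 3 of the 10 genes, with BCL2L11 and BID higher and BAX lower, where 53.3% of all genes tested were called, 26.4% higher and 26.9% lower. A gene was called where its adjusted p, from limma with Benjamini-Hochberg adjustment over all genes tested, was under 0.05. Changes are log2 differences of the group means of log2(normalized count + 1), where a normalized count is a read count divided by the authors' factor for that library. The called change of largest size was that of BBC3 under mitoxantrone, at 2.27-fold, and the next largest against control was 1.27-fold.

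Promoter windows are shown for 4 members: BBC3, which changed most; BID, called in opposite directions under the 2 drugs; BAX, lower under both; and BCL2L11, higher under both. Each window is the RefSeq GRCh38.p14 sequence from 250 bases before to 50 bases after the gene's start in RefSeq, 300 bases read 5′ to 3′ on the gene's strand, and capitals mark matches to the motifs named after the sequences. That start is not always the outermost one of the GENCODE 29 gene spans given below, and the BCL2L11 and BID windows lie wholly inside those spans. Distances to a start below are to the RefSeq start. The table held such a window for 9 of the 10 members, and MCL1 had no entry. The windows lie at chr19:47232618-47232917 on the minus strand for BBC3, at chr22:17773993-17774292 on the minus strand for BID, at chr19:48954625-48954924 on the plus strand for BAX and at chr2:111120664-111120963 on the plus strand for BCL2L11.
BBC3: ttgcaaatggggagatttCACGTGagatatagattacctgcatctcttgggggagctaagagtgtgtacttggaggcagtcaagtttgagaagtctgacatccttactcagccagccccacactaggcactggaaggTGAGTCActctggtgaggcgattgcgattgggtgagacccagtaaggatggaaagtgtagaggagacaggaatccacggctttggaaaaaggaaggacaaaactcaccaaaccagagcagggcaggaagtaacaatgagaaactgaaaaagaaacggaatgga
BID: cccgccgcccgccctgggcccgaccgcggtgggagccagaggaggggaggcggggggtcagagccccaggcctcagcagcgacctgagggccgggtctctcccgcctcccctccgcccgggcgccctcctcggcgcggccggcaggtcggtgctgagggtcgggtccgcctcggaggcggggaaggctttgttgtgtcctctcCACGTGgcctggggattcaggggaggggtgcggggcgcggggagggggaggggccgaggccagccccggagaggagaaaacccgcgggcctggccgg
BAX: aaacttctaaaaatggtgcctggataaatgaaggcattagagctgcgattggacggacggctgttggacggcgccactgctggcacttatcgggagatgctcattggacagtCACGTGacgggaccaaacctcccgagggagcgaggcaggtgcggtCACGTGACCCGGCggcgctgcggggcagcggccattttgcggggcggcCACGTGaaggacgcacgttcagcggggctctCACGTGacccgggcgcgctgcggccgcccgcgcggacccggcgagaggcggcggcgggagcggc
BCL2L11: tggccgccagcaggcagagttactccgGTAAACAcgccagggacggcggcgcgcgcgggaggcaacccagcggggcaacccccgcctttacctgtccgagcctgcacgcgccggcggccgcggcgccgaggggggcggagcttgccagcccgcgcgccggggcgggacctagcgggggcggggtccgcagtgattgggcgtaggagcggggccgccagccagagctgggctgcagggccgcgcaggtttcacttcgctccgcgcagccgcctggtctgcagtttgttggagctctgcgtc

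Motifs were searched on both strands of these windows and of all 35116 windows in the table. The E-box CACGTG, a palindrome bound by MYC and related factors, was found in 3 of the 9 member windows (BBC3, BID and BAX) and in 7.26% of all windows. BAX held 4 matches, with first bases 138, 93, 45 and 14 bases before the start, and BID held 1 at 47 bases before it. The antioxidant response element core TGACNNNGC, the letters associated with NRF2 binding, was found in BAX alone of the 9, at 89 bases before the start and overlapping an E-box, and in 13.3% of all windows. BBC3 held an E-box 232 bases and an AP-1 site TGAGTCA 113 bases before its start, and the AP-1 letters were in 4.95% of all windows. BCL2L11 held the forkhead site GTAAACA, bound by FOXO factors, 223 bases before its start, a motif in 3.42% of all windows. Among members not printed, BAK1 held a p53 half-site, found in 6.63% of all windows, and PMAIP1 the cAMP response element half-site TGACGT, found in 7.98%. The amino acid response element core TGATGNAA was in 3.62% of all windows and in none of the 9. The windows were 48.0% G and C in BBC3, 78.0% in BID, 67.3% in BAX and 74.7% in BCL2L11, beside a median of 58.7% over all windows. These are matches of letters in a window, and they show neither binding nor a cause of any change.

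The libraries held 47.5 M to 94.5 M reads on genes. Mitochondrially encoded genes took 3.71% ± 0.321 of the reads in mitoxantrone libraries, 7.65% ± 0.621 in pyrimethamine libraries and 6.43% ± 0.230 in control libraries (SD, n = 4 each), and mitoxantrone replicate 1 stood apart from its group at 3.23%. The part of this share in the results was not tested. Changes without mitoxantrone replicate 1 are given below for BAK1, BBC3, BCL2L11 and BMF, and not for genes of the related lists. All 10 squamous epithelial markers looked at (TP63, KRT5, KRT14, KRT6A, KRT17, SOX2, DSG3, PERP, ITGB4 and SFN) were expressed. Their normalized counts summed to 385568 to 412031 under mitoxantrone, 477458 to 504594 under pyrimethamine and 400916 to 424412 in control. KRT5 carried most of each sum, and KRT14 averaged only 154, 135 and 136 in the same group order. Single markers moved in opposite directions, SOX2 at 18425, 6617 and 9305 and PERP at 24178, 47378 and 37507. Glandular markers summed to 149 to 195, 136 to 209 and 167 to 248, almost all from GATA4, at a mean of 163, 158 and 188. Fibroblast markers summed to 5872 to 7645 under mitoxantrone, 11847 to 13230 under pyrimethamine and 16888 to 17596 in control. The sums came mostly from COL1A1, at a mean of 4430.1, 11201 and 14955. COL3A1 averaged 2171, 1344 and 2295, with its lowest level under pyrimethamine, and COL1A2 was at 0 in all mitoxantrone and control libraries. Leukocyte markers summed to at most 8.26, 32.9 and 15.9 in the same group order, and endothelial markers to 175 to 247, 1049 to 1153 and 948 to 1059. VWF alone carried the endothelial sums, at a mean of 217, 1098 and 1001, with PECAM1, CDH5 and KDR at or near 0. The part of these markers in the results was not tested. In bulk RNA, fewer cells with a transcript and less of it per cell cannot be told apart.

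Per kilobase of all annotated exons, MCL1 and BCL2L1 were the most abundant members in every group, and BBC3, BMF and BCL2 the least. The order depends on that length. The longest transcript holds 1358 of 2587 bases for BAX, 3932 of 4371 for MCL1 and 2610 of 3314 for BCL2L1. It holds 2495 of 4446 for BID, 7461 of 11765 for BCL2, 1838 of 3180 for BBC3 and 4687 of 5447 for BMF. By longest transcript, the mean of BAX in control would lie above those of MCL1 and BCL2L1. Under mitoxantrone, MCL1 averaged 3199 and BCL2L1 3171 normalized counts per kilobase, with overlapping libraries, followed by BAX at 1865, BAK1 at 1477 and BID at 971. PMAIP1 at 289 and BCL2L11 at 266 overlapped, and BBC3 at 77.0, BMF at 62.1 and BCL2 at 55.5 closed the order without overlap. Under pyrimethamine, MCL1 at 2701 and BCL2L1 at 2626 overlapped, as did BAK1 at 1860 and BAX at 1795, while BID stood at 1509. PMAIP1 at 305 and BCL2L11 at 249 overlapped, as did BMF at 48.9 and BCL2 at 42.9, with BBC3 lowest at 32.2. In control, MCL1 at 2703 and BCL2L1 at 2536 did not overlap, BAX at 2005 and BAK1 at 1871 did, and BID at 1186, PMAIP1 at 288 and BCL2L11 at 220 came next in that order. BMF at 52.9 and BCL2 at 46.0 overlapped in control, and BBC3 was lowest at 33.6. By this length, BBC3 was the last of the 10 in pyrimethamine and control libraries and at rank 8 in mitoxantrone libraries. By longest transcript, the mean of BCL2 would lie above that of BMF in every group, and BBC3 would come close to BMF in pyrimethamine and control libraries.

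**Figure D1:**
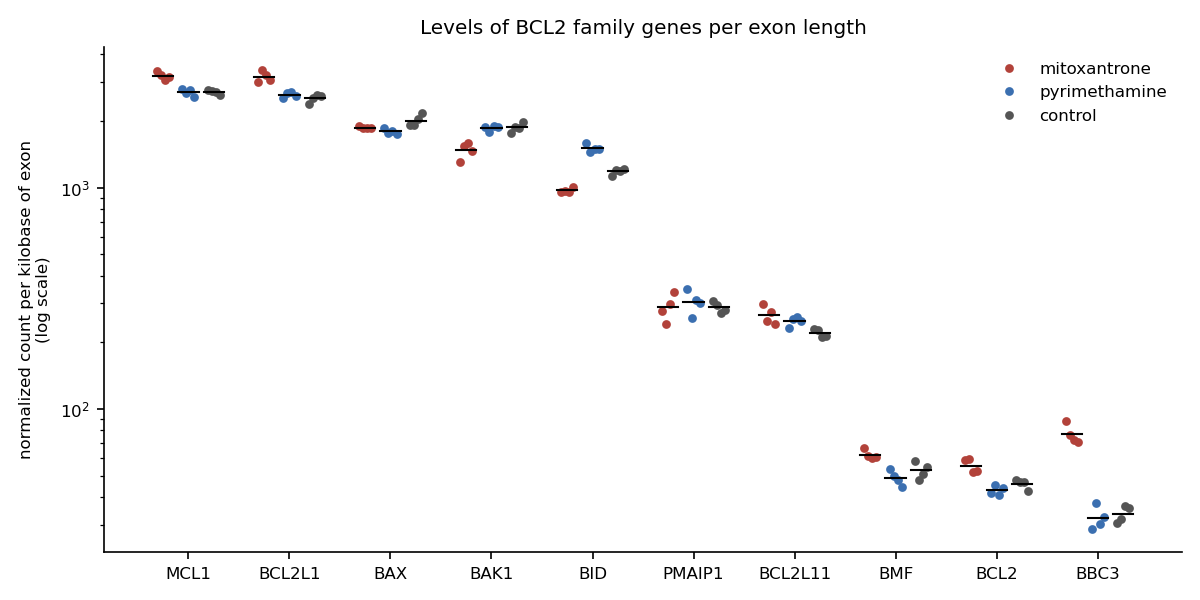
Normalized counts per kilobase of exon (vertical axis, log scale) of the 10 BCL2 family genes, ordered by level in control; each point is 1 library and each bar the mean of 4. Levels run from 3199 per kilobase for MCL1 under mitoxantrone to 32.2 for BBC3 under pyrimethamine.

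Among the survival genes, all of BCL2, BCL2L1 and MCL1 rose under mitoxantrone and none was called under pyrimethamine by limma, edgeR or DESeq2, or had an unadjusted p under 0.05 by limma. BCL2, the founding member of the family (BCL2 lies on the minus strand at chr18:63123346-63320128, GRCh38, GENCODE 29), had 691, 697, 609 and 614 normalized counts in the mitoxantrone libraries, 491, 532, 481 and 516 in the pyrimethamine libraries, and 563, 551, 551 and 499 in the control libraries. Every mitoxantrone library lay above every other library, while the pyrimethamine and control ranges overlapped. BCL2 rose by a log2 change of 0.27 (SE 0.0729, adjusted p = 0.00261), and the pyrimethamine change was -0.10 (95% interval -0.25 to 0.05, adjusted p = 0.266).

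BCL2L1, which encodes BCL-XL and the shorter pro-apoptotic BCL-XS from the same gene, had 9922, 11270.5, 10686 and 10163 normalized counts under mitoxantrone, 8399, 8886, 8918 and 8605 under pyrimethamine, and 7880, 8463, 8688 and 8581 in control. Mitoxantrone libraries were all higher than the rest, and the other groups overlapped. The log2 change was 0.32 under mitoxantrone (SE 0.0422, adjusted p = 7.42e-07) and 0.05 under pyrimethamine (95% interval -0.04 to 0.14, adjusted p = 0.326). The gene spans chr20:31664452-31723989 on the minus strand, its 9 annotated transcripts were counted as 1 gene, and 43.0% of its exon bases overlap the antisense gene ABALON, which had 165 reads over all 12 libraries.

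MCL1, a survival protein known for its short half-life (minus strand, chr1:150574551-150579738), had 14736, 14038, 13403 and 13763 normalized counts under mitoxantrone, 12187, 11698, 12099 and 11248 under pyrimethamine, and 12043, 11941, 11819 and 11464 in control. Its mitoxantrone libraries also lay above all others. MCL1 rose by a log2 change of 0.24 under mitoxantrone (SE 0.0372, adjusted p = 6.20e-06), with a pyrimethamine change of -0.0015 (95% interval -0.08 to 0.08, adjusted p = 0.976). Within the summed per-kilobase level of these 3 genes, BCL2 held 0.863% ± 0.0463 in mitoxantrone libraries, 0.800% ± 0.0473 in pyrimethamine libraries and 0.871% ± 0.0478 in control libraries. BCL2L1 held 49.3% ± 2.05, 48.9% ± 1.17 and 48.0% ± 1.49 in the same group order, and MCL1 held 49.8% ± 2.02, 50.3% ± 1.195 and 51.2% ± 1.45 (SD, n = 4 each). For each of the 3 genes the ranges of these shares overlapped between all groups, and the shares were not tested.

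**Figure D2:**
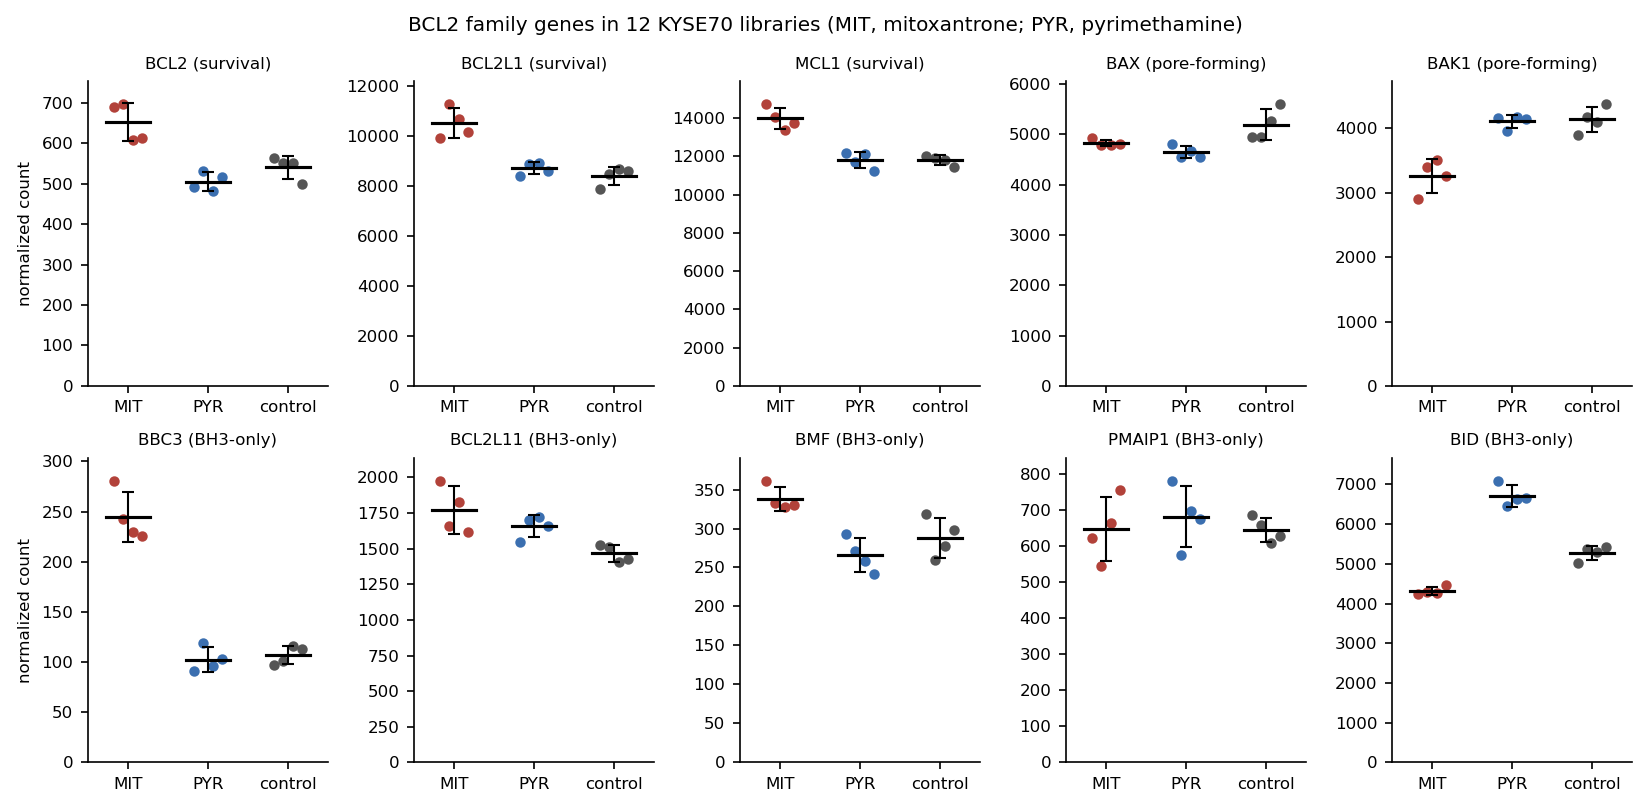
Normalized counts (vertical axes, each from 0) of the 10 genes in mitoxantrone (MIT), pyrimethamine (PYR) and control libraries; points are libraries, wide bars means and error bars SD (n = 4). All 4 mitoxantrone libraries of BCL2, BCL2L1, MCL1, BBC3 and BMF sit above every other library, and BID sits highest under pyrimethamine and lowest under mitoxantrone.

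Of the pore-forming genes, BAX was lower under both drugs and BAK1 under mitoxantrone. BAX, whose product moves from the cytosol to mitochondria to form pores (plus strand, chr19:48954815-48961798), had 4915, 4791, 4791 and 4802 normalized counts under mitoxantrone, 4810, 4551, 4674 and 4539 under pyrimethamine, and 4946, 4942, 5264 and 5598 in control. Both drug groups lay wholly below the control libraries and overlapped each other, with the control group the most spread. The log2 change was -0.10 under mitoxantrone (SE 0.0411, adjusted p = 0.0313) and -0.16 under pyrimethamine (SE 0.0411, adjusted p = 0.00263). The mitoxantrone call depended on single libraries: without control replicate 4 the change was -0.07 (adjusted p = 0.145), and the adjusted p was 0.0543 to 0.0733 when control replicate 3 or mitoxantrone replicate 2, 3 or 4 was left out.

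BAK1 encodes BAK, which resides on mitochondria and forms pores as BAX does (minus strand, chr6:33572547-33580293). BAK1 had 2902, 3408, 3506 and 3254 normalized counts under mitoxantrone, 4164, 3963, 4179 and 4150.4 under pyrimethamine, and 3898, 4173, 4107 and 4378 in control. Mitoxantrone libraries were all lower than the others, with replicate 1 the lowest, and pyrimethamine and control libraries overlapped. BAK1 fell by a log2 change of -0.34 under mitoxantrone (SE 0.0508, adjusted p = 3.88e-06), and its pyrimethamine change was -0.0077 (95% interval -0.11 to 0.10, adjusted p = 0.914). Without mitoxantrone replicate 1 the mitoxantrone change of BAK1 was -0.29. Reads of its pseudogene BAK1P1, a copy that could share reads, averaged 1.03, 6.25 and 2.91 normalized counts in mitoxantrone, pyrimethamine and control libraries.

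BBC3 had the largest change of the 10 genes under mitoxantrone. It encodes PUMA, a BH3-only protein that binds all the survival proteins and is a p53 target (minus strand, chr19:47220822-47232766). BBC3 had 281, 242, 230.1 and 226 normalized counts under mitoxantrone, 90.8, 119, 96.2 and 103 under pyrimethamine, and 97.3, 101, 116 and 113 in control. The mitoxantrone libraries, with replicate 1 the highest, stood well above all others, and pyrimethamine and control libraries overlapped. The log2 change was 1.19 under mitoxantrone (SE 0.133, adjusted p = 7.62e-08). Of all genes tested, 2.57% had a larger positive change and 14.5% a larger change in either direction. The pyrimethamine change was -0.07 (95% interval -0.34 to 0.21, adjusted p = 0.697). Without mitoxantrone replicate 1 BBC3 was 2.17-fold higher than control.

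BCL2L11, which encodes BIM, a BH3-only activator under forkhead control in several cell types (plus strand, chr2:111119378-111168447), was higher under both drugs. It had 1978, 1661, 1831 and 1615 normalized counts under mitoxantrone, 1550, 1698, 1725 and 1660.2 under pyrimethamine, and 1523, 1510, 1408 and 1428 in control. All drug libraries lay above all control libraries, pyrimethamine replicate 1 by little, and the drug groups overlapped. The log2 change was 0.27 under mitoxantrone (SE 0.0596, adjusted p = 4.47e-04; 0.21 without mitoxantrone replicate 1) and 0.18 under pyrimethamine (SE 0.0596, adjusted p = 0.0167). The pyrimethamine call was lost without control replicate 3 (0.16, adjusted p = 0.0528), without pyrimethamine replicate 3 (0.16, adjusted p = 0.0548) and with every library scaled to 1 common total (0.12, adjusted p = 0.114). Of its exon bases, 10.9% overlap MIR4435-2HG on the opposite strand, which had 2654 ± 141 normalized counts under mitoxantrone, 1426 ± 82.4 under pyrimethamine and 1863 ± 81.2 in control (SD, n = 4 each). MIR4435-2HG changed by 0.51 under mitoxantrone and by -0.39 under pyrimethamine (log2); the strand setting of the counting is not given in the sources used here, so reads of the pair cannot be told apart in the overlap.

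BMF, a BH3-only protein that binds dynein light chain (minus strand, chr15:40087890-40108892), had 362, 333, 328 and 330.0 normalized counts under mitoxantrone, 293, 271, 259 and 242 under pyrimethamine, and 318, 259, 277 and 298 in control. Mitoxantrone libraries were all above the others, control replicate 1 coming closest, and pyrimethamine and control libraries overlapped. The log2 change under mitoxantrone was 0.23 (SE 0.0951, adjusted p = 0.0343), a call lost without mitoxantrone replicate 1 (0.20, adjusted p = 0.0860), without control replicate 2 (0.18, adjusted p = 0.120) and without control replicate 3 (0.22, adjusted p = 0.0745). It was also lost with every library scaled to 1 common total (0.13, adjusted p = 0.234) and with upper-quartile rescaling (0.19, adjusted p = 0.0887). The pyrimethamine change was -0.11 (95% interval -0.31 to 0.09, adjusted p = 0.337).

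PMAIP1 encodes NOXA, a BH3-only protein that binds MCL1 and is a p53 and ATF4 target (plus strand, chr18:59899948-59904306). PMAIP1 had 621, 543, 663 and 755 normalized counts under mitoxantrone, 781, 574, 695 and 675 under pyrimethamine, and 684, 657, 606 and 626 in control. The groups overlapped throughout, and both drug groups spread more widely than control. PMAIP1 was not called against control under either drug: the log2 change was -0.0039 under mitoxantrone (95% interval -0.20 to 0.19, adjusted p = 0.974) and 0.07 under pyrimethamine (95% interval -0.12 to 0.27, adjusted p = 0.532).

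BID, which links death receptors to mitochondria once it is cleaved by caspase-8 (minus strand, chr22:17734138-17774770), was called in opposite directions under the drugs. BID had 4236, 4301, 4269 and 4457 normalized counts under mitoxantrone, 7095, 6460.5, 6633 and 6655 under pyrimethamine, and 5029, 5361, 5284 and 5418 in control. The groups did not overlap: pyrimethamine libraries were the highest, control libraries lay between, and mitoxantrone libraries were the lowest. The log2 change was -0.29 under mitoxantrone (SE 0.0384, adjusted p = 9.06e-07) and 0.35 under pyrimethamine (SE 0.0384, adjusted p = 1.44e-07).

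**Figure D3:**
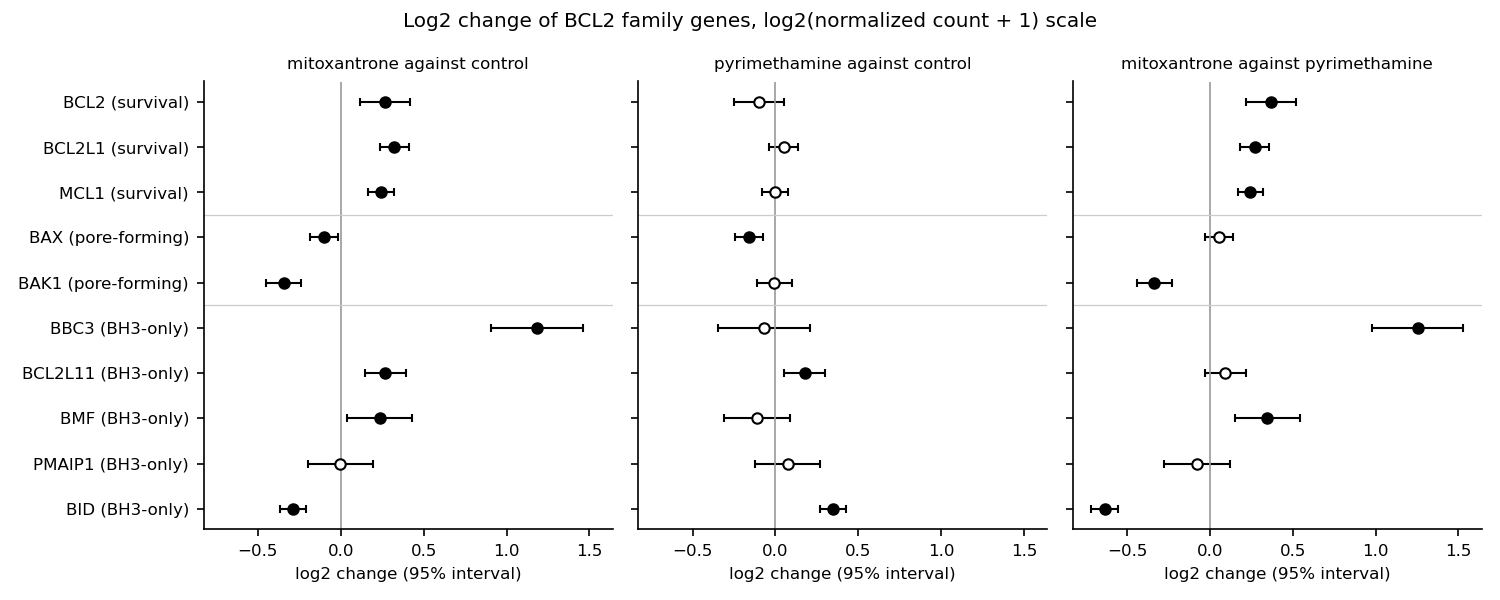
Log2 changes (horizontal axes, log2(normalized count + 1) scale) of the 10 genes with 95% intervals, for mitoxantrone against control, pyrimethamine against control and mitoxantrone against pyrimethamine; filled points passed an adjusted p of 0.05. BBC3 reaches 1.19 against control, and BID lies at -0.29, 0.35 and -0.64 in the 3 panels.

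The median log2 change of the 10 genes was 0.24 under mitoxantrone, beside -0.0080 over all genes tested, and -0.0046 under pyrimethamine, beside 0.0018 over all genes. The median size of change, without sign, was 0.27 for the members and 0.38 for all genes under mitoxantrone, and 0.087 and 0.26 under pyrimethamine. The members called were also those whose groups did not overlap, 9 of 10 under mitoxantrone, where 60.9% of all genes did not overlap (29.9% higher, 31% lower), and 3 of 10 under pyrimethamine, where 51.1% did not (25.8% higher, 25.4% lower). Without mitoxantrone replicate 1, 5 members were higher and 3 lower under mitoxantrone. With all libraries scaled to 1 common total, 4420 genes were called higher and 7210 lower under mitoxantrone, against 5681 and 6064 as deposited, and the median of all genes moved to -0.11; no member called as deposited changed direction, and BMF under mitoxantrone and BCL2L11 under pyrimethamine lost their calls. The comparisons with control share the same 4 control libraries.

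Set against each other, the drugs differed in 7 of the 10 genes: 5 were higher with mitoxantrone than with pyrimethamine (BCL2, BCL2L1, MCL1, BBC3 and BMF) and 2 were lower (BAK1 and BID). Of all genes tested, 76.4% were called in this comparison, 36.9% higher and 39.5% lower, and 68.8% did not overlap (33.3% higher, 35.5% lower). The 7 members called did not overlap either. BBC3 averaged 245 ± 25.05 normalized counts with mitoxantrone and 102 ± 12.3 with pyrimethamine, a 2.38-fold difference (95% interval of the log2 difference 0.98 to 1.53, adjusted p = 2.11e-08). BID averaged 4316 ± 98.0 with mitoxantrone and 6711 ± 271 with pyrimethamine, a log2 difference of -0.64 (95% interval -0.72 to -0.56, adjusted p = 1.76e-12), the smallest adjusted p of the 10 genes (SD, n = 4 each). The remaining called differences were 0.37 for BCL2, 0.35 for BMF, 0.27 for BCL2L1, 0.24 for MCL1 and -0.34 for BAK1. BAX (0.06, 95% interval -0.03 to 0.14), BCL2L11 (0.09, -0.03 to 0.22) and PMAIP1 (-0.08, -0.28 to 0.12) were not called, with adjusted p-values of 0.223, 0.167 and 0.458. The doses and targets of the drugs differ, so this sets side by side 2 treatments and not 2 matched doses. The median of the members was 0.17, beside -0.024 over all genes.

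Genes whose levels followed those of a member most closely over the 12 libraries were found by the root mean square difference of log2 values centred on each gene's mean, among 11237 protein-coding genes. For BBC3 these were TSHZ1 (0.0982), ICK (0.0985) and INVS (0.105), beside a root mean square deviation of 0.589 of BBC3 itself. BID was followed by ECHS1 (0.0427), RNASEH2C (0.0443) and GLA (0.0452), beside 0.263 of BID itself. BAK1 was followed by DRG1 (0.0438), MSRB1 (0.0470) and SFN (0.0496), beside 0.175 of its own. PMAIP1, whose levels varied mostly within groups, had no gene nearer than ULK4 (0.105), beside its own 0.145.

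Other members of the BCL2 family outside the 10 also moved both ways. Of the 13 listed, 10 were tested. Under mitoxantrone 3 rose and 4 fell, with a median log2 change of 0.04, beside 33.5% and 35.8% of all genes tested. Under pyrimethamine 4 rose and 4 fell, with a median of 0.05, beside 26.4% and 26.9% of all genes tested. BAD, a BH3-only protein controlled by phosphorylation, averaged 2534 ± 116 normalized counts under mitoxantrone, 1368 ± 53.5 under pyrimethamine and 1683 ± 165 in control, log2 changes of 0.59 and -0.29. BCL2L2, the survival protein BCL-W, was likewise higher under mitoxantrone (0.56) and lower under pyrimethamine (-0.24), and BCL2L13 was higher under mitoxantrone (0.11). BIK, a BH3-only protein of the endoplasmic reticulum, went the other way, at 275 ± 27.98, 797 ± 80.5 and 572 ± 24.6 normalized counts, log2 changes of -1.06 and 0.47. BCL2L14 averaged 2.91 normalized counts under mitoxantrone against 52.0 in control (log2 -4.05, a size that depends on the added count of 1), and BCL2L12 was lower under mitoxantrone (-0.18) and higher under pyrimethamine (0.60). With at most 5.72 under mitoxantrone, BCL2L14 passed the filter on low values only through the other groups. BOK, a relative of BAX and BAK, was lower under mitoxantrone (-0.11) and higher under pyrimethamine (0.44). Under pyrimethamine BNIP3L, a mitophagy receptor, was also higher (0.71), and HRK (-1.47), a BH3-only protein, and BCL2L13 (-0.23) were lower. Between 23.7% and 33.1% of the exon bases of BAD, BCL2L2 and BCL2L12 overlap other genes, so their counts are uncertain.

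Downstream of the pore, all 9 genes of the apoptosome and caspase list were called under mitoxantrone, where 69.3% of all genes were. Of the 9, 2 were higher and 7 lower (median -0.22), beside 33.5% and 35.8% of all genes tested. Under pyrimethamine 5 were higher and 1 lower (median 0.16), beside 26.4% and 26.9% of all genes tested. CASP9, the caspase activated on the apoptosome, averaged 662 ± 22.6 normalized counts under mitoxantrone, 1122 ± 55.7 under pyrimethamine and 1007 ± 24.7 in control, log2 changes of -0.60 and 0.16. APAF1, its scaffold, changed by -0.17 and 0.44, and CYCS, which encodes cytochrome c, by 0.16 and 0.31. CASP8, the initiator that cleaves BID, fell under mitoxantrone (-0.41), as did CASP10 (-2.81, at 22.9 normalized counts against 154 in control). CASP2 rose under mitoxantrone (0.17) and under pyrimethamine (0.52). The 2 mitoxantrone rises depended on scaling: neither was called with libraries scaled to 1 common total, and 1 with upper-quartile rescaling or quantile normalization. The 7 mitoxantrone falls were 5 to 7 with a library left out and 6 to 7 under other settings.

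Inhibitors of apoptosis (IAP) proteins, which block caspases, and the mitochondrial proteins that oppose them had 7 of 10 listed genes tested. Under mitoxantrone 2 were higher and 2 lower (median 0.03), beside 33.5% and 35.8% of all genes tested. Under pyrimethamine 3 were higher and 2 lower (median 0.14), beside 26.4% and 26.9% of all genes tested. BIRC3, an NF-kB target, averaged 24.3 ± 5.41 normalized counts under mitoxantrone, 321 ± 27.5 under pyrimethamine and 123 ± 9.82 in control, log2 changes of -2.31 and 1.38. XIAP, the IAP that binds caspases directly, was higher under mitoxantrone (0.30) and lower under pyrimethamine (-0.50). BIRC5, which encodes survivin and peaks in mitosis, was higher under mitoxantrone (0.30) and under pyrimethamine (0.64). BIRC2 was higher under pyrimethamine (0.25), and HTRA2, an IAP antagonist with 36.9% of its exon bases in overlap with other genes and so with uncertain counts, was lower (-0.11). The 2 lower calls under mitoxantrone were 4 with no filter on low values, and the 2 under pyrimethamine were 1 without control replicate 1, control replicate 3 or pyrimethamine replicate 2. DIABLO, another antagonist, was lower under mitoxantrone (-1.16), but 30.4% of its exon bases overlap other annotated genes, 1 of the same name, and its counts are uncertain.

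Death receptor genes, which feed into BID through caspase-8, were called lower in 6 of 8 tested under mitoxantrone (median -0.47), where 35.8% of all genes were lower, and in 3 of 8 under pyrimethamine (median 0.02), where 26.9% were. Of these 6, CFLAR lay close to the filter, at 1.27 normalized counts under mitoxantrone and 10.5 in control. With at most 1.91 in any mitoxantrone library, CFLAR passed the filter only through the other groups, and no support is drawn from its lower call. FAS averaged 55.3 ± 21.8 normalized counts under mitoxantrone, 165 ± 36.9 under pyrimethamine and 140.0 ± 12.8 in control, a log2 change of -1.43 under mitoxantrone and an uncalled 0.20 under pyrimethamine. TNFSF10, the ligand TRAIL, fell under mitoxantrone (-0.81) and pyrimethamine (-0.43), and so did the signaling kinase RIPK1 (-0.65 and -0.28). TNFRSF1A, a TNF receptor, was higher under mitoxantrone (0.29), the single gene of the list to be so, and lower under pyrimethamine (-0.35). FASLG, TNFRSF10A, TNFRSF10C and TNFRSF10D did not pass the filter on low values.

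**Figure D4:**
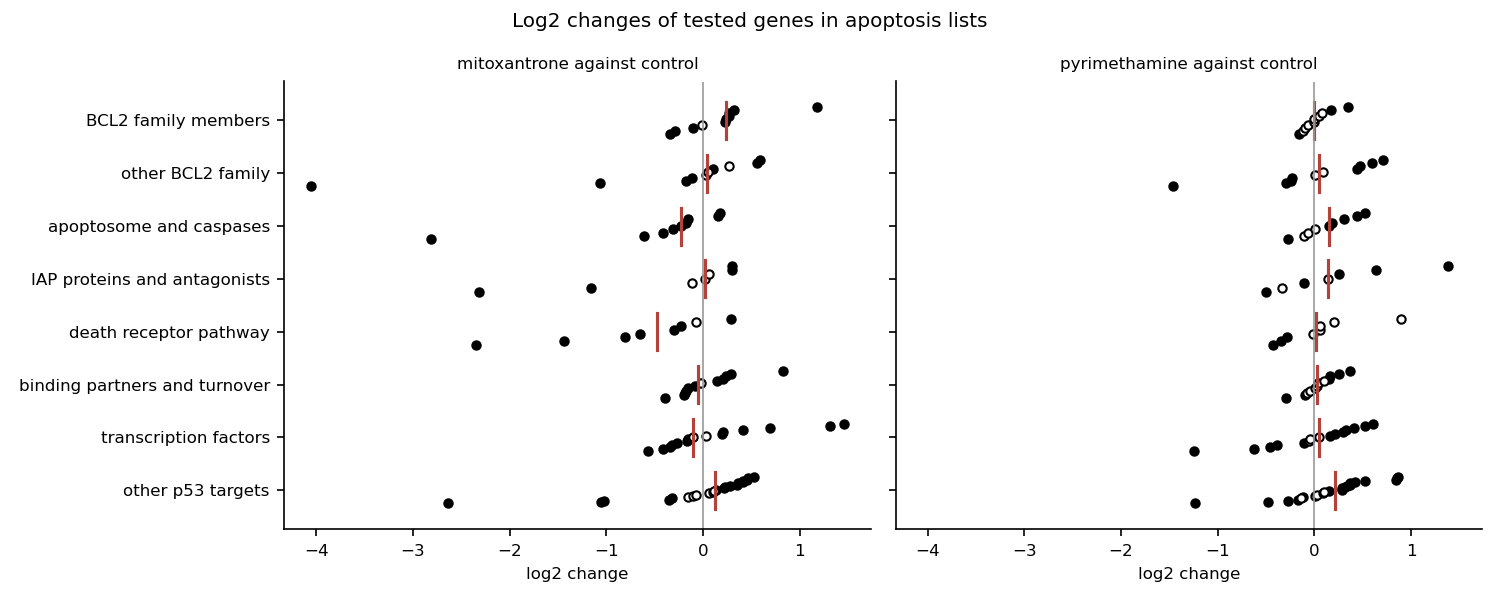
Log2 changes (horizontal axes) of every tested gene of the BCL2 family and 7 related lists, for mitoxantrone against control and pyrimethamine against control; filled points passed an adjusted p of 0.05 and red bars are list medians. The BCL2 family members span -0.34 to 1.19 under mitoxantrone and -0.16 to 0.35 under pyrimethamine.

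All 15 transcription factors known to act on BCL2 family genes were tested. Under mitoxantrone 6 rose and 7 fell (median -0.11), beside 33.5% and 35.8% of all genes tested. Under pyrimethamine 7 rose and 5 fell (median 0.05), beside 26.4% and 26.9% of all genes tested. ATF4, the effector of the integrated stress response, averaged 35531 ± 840 normalized counts under mitoxantrone, 5453 ± 167 under pyrimethamine and 12921 ± 379 in control, log2 changes of 1.46 and -1.24. DDIT3, which encodes CHOP and lies downstream of ATF4, averaged 495 ± 73.4 under mitoxantrone and 242 ± 12.02 under pyrimethamine against 197 ± 7.40 in control, log2 changes of 1.31 and 0.29, with 39.6% of its exon bases in overlap with other genes. NFE2L2, which encodes NRF2, was higher under mitoxantrone (0.69) and lower under pyrimethamine (-0.11), with 20.9% of its exon bases in overlap. STAT3, known to act on BCL2L1 and MCL1, fell under mitoxantrone (-0.56) and rose under pyrimethamine (0.61), as did JUN (-0.41 and 0.52). FOXO1, a forkhead factor, fell under mitoxantrone (-0.34), and MYC rose under mitoxantrone (0.21) and pyrimethamine (0.41). Under pyrimethamine TP73 (-0.46), TP63 (-0.38) and NFKB1 (-0.63) were lower.

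BBC3, PMAIP1 and BAX are known p53 targets, and the other p53 targets were read beside them. Of 22 genes, 11 were higher and 5 lower under mitoxantrone (median 0.13), beside 33.5% and 35.8% of all genes tested. These counts were 10 to 12 and 5 to 6 with a library left out, and 8 to 11 and 5 to 7 under other settings. Under pyrimethamine 12 were higher and 5 lower (median 0.22), beside 26.4% and 26.9% of all genes tested. CDKN1A, which encodes the cell cycle inhibitor p21, averaged 3360 ± 135 normalized counts under mitoxantrone, 9284 ± 250 under pyrimethamine and 6954 ± 244 in control, log2 changes of -1.05 and 0.42. TP53I3 (-2.63) and PLK2 (-1.02) also fell under mitoxantrone, with BTG2 (-0.35) and PHLDA3 (-0.32), while SESN2 (0.53), MDM2 (0.47) and PLK3 (0.45) rose. Mitoxantrone replicate 1 had 1633 normalized counts of SESN2 beside 1116 to 1191 in its group, and the SESN2 change without it is not given here. Under pyrimethamine ZMAT3 (0.86), GDF15 (0.86) and TP53INP1 (0.84) rose most, and SPATA18 (-1.24), DDB2 (-0.48), FDXR (-0.27), CCNG1 (-0.16) and XPC (-0.12) fell, with 30.4% of the exon bases of XPC in overlap with other genes, so that its counts are uncertain. BBC3, with its rise under mitoxantrone and no call under pyrimethamine, thus stood beside p53 targets that were lower, higher and not called in the same libraries.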

How the data were processed

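RNA of KYSE70 cells was sequenced in 12 libraries, 4 per group. Tools named in the submitters' processing notes are STAR 2.6.90c, featureCounts 1.5.1, cutadapt 1.12 and FastQC 0.11.5, with the builds hg38 and mm10. What the authors deposited is a normalized signal for every gene in each library: the read count over a factor that is constant within the library. Multiplying by that factor gave whole reads for 100% of the values, within 0.01 read. The tool behind the factors, the strand setting and the handling of reads over several genes are not given in the sources used here.

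A gene was tested where 4 or more libraries had a value of 10 or higher, which kept 16950 of the 34033 genes with any read and all 10 members. The model was limma 3.58.1 (R 4.3.3) on log2(value + 1), with the 3 groups and no covariate over all 12 libraries, eBayes with a trend, two-sided p-values adjusted by Benjamini-Hochberg over every gene tested within a comparison, and calls at 0.05. This scale understates changes at few counts. Library measures had exact two-sided permutation tests, which with 4 against 4 libraries give no p under 0.0286 (adjusted 0.0571), the value the mitochondrial share reached in all 3 comparisons. Levels per kilobase used the union of exons of GENCODE 29 on GRCh38, which may not be the authors' annotation. Libraries of a group differed by more than counting noise, so none was counted as 1 library deposited again; this does not show that they are separate cultures. Depth ran between 47.5 M and 94.5 M reads.

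Other settings tried were a pseudocount of 0.5 or 10, dropping the filter or asking for a mean of 100, scaling by total, upper quartile or quantiles, a robust variance, no trend, fitting the 8 libraries of a comparison alone, a block for the replicate number, leaving out each library, and length by the longest transcript. On the recovered reads, edgeR 4.0.16 and DESeq2 1.42.0 called 5805 and 5791 genes higher and 5960 and 6043 lower under mitoxantrone, 4506 and 4712 higher and 4780 and 4606 lower under pyrimethamine, and 6415 and 6260 higher and 6528 and 6700 lower between the drugs.

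All members are named. Of the related lists, the rule names the 3 largest called rises and falls against control (higher group averaging 50 or more) and the genes behind counts of 5 or fewer. Uncalled or smaller changes given beside a named gene were added after their values were seen, and some genes of the lists are counted but not reported here by name. Genes of similar pattern averaged 100 or more. The members and lists were chosen with earlier results of these data known. Software for tables and figures was Python 3.11.15 with pandas 2.3.3, numpy 2.4.6 and matplotlib 3.10.9.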

Additional observations from a re-analysis of the deposited data

Results flagged for a closer look

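In 17 of 216 groups of 4 libraries looked at, over the members, the related genes and the mitochondrial share, 1 library lay far from the other 3, and chance alone would flag about 1 in 20. Among the members, mitoxantrone replicate 1 had 4915 normalized counts of BAX beside 4791 to 4802 in its group, and 361.5 of BMF beside 328 to 333. Pyrimethamine replicate 2 had 3963 of BAK1 beside 4150.4 to 4179.

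Mitoxantrone replicate 1 also stood apart in its mitochondrial share, 3.23% beside 3.84% to 3.89%, in FOXO1 (1767) and in SESN2 (1633). Mitoxantrone replicate 2 stood apart in TNFSF10 (217.5) and YWHAZ (65077), and replicate 4 in BIRC3 (32.3). Pyrimethamine replicate 1 stood apart in FBXW7 (1606) and STAT3 (7913), replicate 2 in NFE2L2 (4772) and PLK2 (9458), and replicate 3 in BIRC2 (5900.5). In control, replicate 2 stood apart in DDIT3 (186) and replicate 4 in BCL2L12 (3536) and USP9X (12289). All are normalized counts.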

How the results depend on the processing

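Of 750 member changes recomputed under alternatives, 716 kept direction and call, 15 lost the call and 19 turned sign, none of these with a call before or after. The lost calls (BCL2L11 under pyrimethamine, BAX and BMF under mitoxantrone) are given beside those genes, except BAX with no filter (adjusted p = 0.0632) and with no variance trend (0.0546). The members called higher under pyrimethamine numbered 1 with every library scaled to 1 common total, and 1 to 2 with a library left out. Turned signs in log2, pyrimethamine against control, were BCL2L1 -0.0065 (same total), MCL1 0.0089 (upper quartile) and 0.0013 (DESeq2), and BAK1 0.0028 (upper quartile), and with a library left out MCL1 ran from -0.017 to 0.0216 (0.0076, 0.0036, 0.0027 and 0.0216 where turned) and BAK1 from -0.036 to 0.0197 (0.0197 and 0.0101). For PMAIP1 under mitoxantrone they were 0.0212 (quantile), 0.0087 (edgeR) and 0.0055 (DESeq2), and with a library left out from -0.083 to 0.0758 (also 0.0259, 0.0070 and 0.0114 where turned). Between the drugs they were BAX -0.0016 (upper quartile) and PMAIP1 0.0011 (without mitoxantrone replicate 2; -0.16 to 0.0011 with a library left out). The cause was not tested.

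With the longest transcript as length, the per-kilobase shares of BCL2 were 1.14%, 1.06% and 1.15% in mitoxantrone, pyrimethamine and control libraries, of BCL2L1 52.5%, 52.1% and 51.1%, and of MCL1 46.4%, 46.9% and 47.7%, which puts BCL2L1 above MCL1 through the lengths used. Replicate numbers did not pair the libraries (correlation of deviations -0.0133 to 0.0295), and a replicate block left the members called at 6 higher and 3 lower, 2 and 1, and 5 and 2 for mitoxantrone and pyrimethamine against control and between the drugs; it moved no count by over 1.5 times. Depth limits BBC3 and BMF most, with the fewest reads.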

Other observations

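Of 12 genes tested for binding partners and turnover of BCL2 family proteins, 5 were higher and 6 lower under mitoxantrone. The median log2 change was -0.05 (all genes -0.0080), and 33.5% and 35.8% of all genes tested were higher and lower. Under pyrimethamine 4 were higher and 2 lower (median 0.03, all genes 0.0018), beside 26.4% and 26.9% of all genes tested. YWHAZ, a scaffold protein that holds phosphorylated BAD in the cytosol, averaged 68174 ± 2082 normalized counts under mitoxantrone, 37109 ± 913 under pyrimethamine and 38269 ± 639 in control (SD, n = 4 each), a log2 change of 0.83 under mitoxantrone. VDAC1 (0.29) and VDAC2 (0.21), channels of the outer mitochondrial membrane of which VDAC2 binds BAK, rose under mitoxantrone, as did DYNLL2 (0.24), the dynein light chain that binds BMF, and MARCH5 (0.14). HUWE1 (-0.39), a ubiquitin ligase of MCL1, USP9X (-0.19), which removes ubiquitin from MCL1, and BTRC (-0.18) fell under mitoxantrone. DYNLL1 (0.37), the light chain that binds BIM, rose under pyrimethamine with the ligase gene MARCH5 (0.26), USP9X (0.16) and DYNLL2 (0.15), while FBXW7 (-0.29) and BTRC (-0.10), which recognise MCL1 or BIM for degradation, were lower. The 4 higher calls under pyrimethamine were 2 with every library scaled to 1 common total. The 2 lower calls were 1 to 4 under other settings, and 1 without control replicate 1, 2 or 3 or without any single pyrimethamine library.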
